A study of Mus musculus with 6 samples.

Results

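The genes described here are the constitutive subunits of the proteasome, in tumor cells and immune cells of 6 murine rhabdoid tumors profiled by single-cell RNA sequencing. They were taken by symbol, as all genes named *Psma*, *Psmb*, *Psmc* or *Psmd* followed by a number, and the immunoproteasome subunits *Psmb8*, *Psmb9* and *Psmb10* were left out. This gave 35 members among 16557 genes. Of these, 34 were in the tables of all 6 tumors, and *Psma8* was in 5 and was counted as 0 in the sixth. The pattern also takes in *Psma8*, a testis form, and *Psmd5*, *Psmd9* and *Psmd10*, chaperones that help to assemble the particle and are not part of the finished one.

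The proteasome is the protease that degrades proteins tagged with ubiquitin. Its core is a stack of rings in which alpha subunits form the gate and beta subunits line the chamber, and *Psmb5*, *Psmb6* and *Psmb7* carry the cleaving sites. A regulatory particle sits on the core, with a base of ATPases that unfold the substrate and a lid that takes off the ubiquitin chain. Immune cells, and other cells under interferon, build cores in which *Psmb8*, *Psmb9* and *Psmb10* take the places of *Psmb5*, *Psmb6* and *Psmb7*. The subunits are made together in nearly all cells, largely under the transcription factor encoded by *Nfe2l1*.

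The tumors arose in mice with floxed *Smarcb1*, a core subunit gene of the SWI/SNF complex, after induction of Cre with tamoxifen at 50 mg/kg given to the pregnant female at 6.5 days post coitum. The MYC spinal tumors, Rosini1172, Rosini1177 and Rosini1232, came from the Rosa26-cre strain, at 19, 26 and 17 weeks. The eRT (extracranial rhabdoid tumors) were Rosini1148 of the same strain, at a gland at 17 weeks by its label, and Soxertini568_maxilar (Soxertini568 here) and Soxertini593 of the Sox2-cre strain, at the jaw and shoulder at 29 and 22 weeks. The plots name tumors by the number in these names. The drivers differ in the cells they recombine, since *Rosa26* is active nearly everywhere and *Sox2* in early embryonic progenitors, so subtype and strain cannot be fully told apart.

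Of 22163 cells kept, 2451 lay in *Smarcb1*-negative clusters and are called tumor cells. Their number differed widely between tumors, with 95, 15 and 1442 in MYC spinal Rosini1172, Rosini1177 and Rosini1232 and 68, 202 and 629 in eRT Rosini1148, Soxertini568 and Soxertini593. *Smarcb1* stood at 0 to 6.41 CPM (UMIs, or unique molecular identifiers, of a gene per 1000000 UMIs counted) in the tumor cells and at 26.3 to 59.0 CPM in the immune-like cells, which were named by marker genes and numbered 1334 to 5219 per tumor. The neutrophils among the latter had 9.9 CPM in Rosini1177, 22.8 CPM in Rosini1232 and 4.2 CPM in Soxertini568. A low *Smarcb1* level was thus not particular to tumor cells. Within a tumor, the UMIs of all cells of a kind were added up, and the sums of tumor cells held 44738 to 7966486 UMIs, the lowest in Rosini1177. There, 1 UMI weighs so much that a gene with no UMI could still lie at up to 67.1 CPM. The summed level of 6 pan-immune markers was 91.5 to 549 CPM in tumor cells and 6410 to 11000 CPM in immune-like cells. In Rosini1177, 12 neutrophil markers summed to 17400 CPM in the tumor cells and 125000 CPM in the immune-like cells, and to at most 957 CPM in the tumor cells of the others. Their part in the results was not tested, and values without Rosini1177 are given where they change a call. Fibroblast markers (6 genes) summed to 616 to 3110 CPM in tumor cells and to 1.82 to 27.8 CPM in immune-like cells. Monocyte markers (8 genes, among them *Fn1*, also a leading gene of an osteoclast cluster) summed to 55.8 to 1200 CPM against 560 to 5880 CPM. They were higher in the tumor cells of Rosini1148 (1200 against 560 CPM) and Rosini1232 (796 against 639 CPM). The sums do not show which of the genes carried this. Macrophage markers (11 genes) summed to 22.4 to 2050 CPM against 249 to 54300 CPM, and microglia markers (5 genes, among them *Sparc*, which other cells also express) to 1010 to 1750 CPM against 8.28 to 328 CPM. Epithelial markers (4 genes) summed to 1600 CPM in the tumor cells of Rosini1148 and to 15.7 to 224 CPM in those of the others. In 1 *Smarcb1*-negative cluster, called eRT 19 here (0 *Smarcb1* UMIs where 13.7 were expected), the leading genes include the epithelial *Cldn4*, *Cldn3*, *Epcam* and *Cldn7*, and it holds 37 of the 68 tumor cells of Rosini1148 and 2 of Soxertini568. In Rosini1148 *Psmd7* stood at 391 CPM in this cluster and at 252 CPM in its tumor cluster eRT 3. The part of these markers was not tested, and calls without this cluster are given where they change. Each sum comes from 1 mouse. With the tumor as a block, p-values rest on how differences within a mouse vary from mouse to mouse. In the joint fit of all immune types this spread is shared over the types, also for types found in few tumors. Only the test between subtypes rests on the spread between mice.

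The promoters of 2 catalytic pairs are shown because the levels of the constitutive and the interferon-induced gene of each pair are set side by side further on. Promoter sequences from RefSeq, with 250 bases before and 50 bases after the gene start on GRCm38.p6, were found for 28 of the 35 members. The motif TGACNNNGC, the core of the antioxidant response element bound by the products of *Nfe2l1* and *Nfe2l2*, was sought on both strands and is given in capitals. It was present in 5 of these 28 windows (17.9%), those of *Psmb5*, *Psmb6*, *Psmc6*, *Psmd12* and *Psmd9*, and in 12.5% of all 27018 promoter windows of the same length. None of the 3 windows of *Psmb8*, *Psmb9* and *Psmb10* held it. In the annotation that gives the gene positions further on, *Psmb8* begins at base 34197721 and *Psmb9*, on the minus strand, at base 34187764. The windows of *Psmb8* and *Psmb9* lie within the gene there, and the bases before these starts were not searched. An interferon-type motif, GAAA and another GAAA with any 2 bases between them, was present in 3 of the 28 windows and in 3.49% of all windows, and the E-box CACGTG in 2 of the 28 and in 7.24% of all windows. None of the windows below held either of the last motifs, and all matches are of letters only.
Psmb5 (chr14:54617946-54618245, minus strand): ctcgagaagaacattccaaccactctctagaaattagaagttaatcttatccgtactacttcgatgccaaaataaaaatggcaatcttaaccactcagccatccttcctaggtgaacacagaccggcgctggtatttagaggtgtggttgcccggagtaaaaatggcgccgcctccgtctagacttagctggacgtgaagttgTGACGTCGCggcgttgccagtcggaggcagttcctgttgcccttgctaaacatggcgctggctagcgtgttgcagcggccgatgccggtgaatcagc
Psmb6 (chr11:70525107-70525406, plus strand): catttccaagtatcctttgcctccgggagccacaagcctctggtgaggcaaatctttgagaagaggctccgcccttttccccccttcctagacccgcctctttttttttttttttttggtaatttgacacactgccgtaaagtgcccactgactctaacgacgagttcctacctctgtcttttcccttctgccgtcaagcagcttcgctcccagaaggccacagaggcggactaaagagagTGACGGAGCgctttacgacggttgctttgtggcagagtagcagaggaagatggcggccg
Psmb8 (chr17:34197945-34198244, plus strand): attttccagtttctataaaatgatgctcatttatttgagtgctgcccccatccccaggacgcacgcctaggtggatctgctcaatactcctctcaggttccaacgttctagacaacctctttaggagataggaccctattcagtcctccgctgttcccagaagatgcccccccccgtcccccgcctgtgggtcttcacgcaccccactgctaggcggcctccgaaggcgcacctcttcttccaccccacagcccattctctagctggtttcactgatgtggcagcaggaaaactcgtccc
Psmb9 (chr17:34187281-34187580, minus strand): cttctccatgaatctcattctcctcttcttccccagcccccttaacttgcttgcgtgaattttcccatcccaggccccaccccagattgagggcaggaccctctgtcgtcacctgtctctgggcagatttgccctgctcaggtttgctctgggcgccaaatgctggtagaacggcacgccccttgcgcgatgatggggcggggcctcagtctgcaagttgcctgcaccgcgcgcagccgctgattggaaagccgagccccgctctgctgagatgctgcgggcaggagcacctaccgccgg
The match began at base 204 of the window of *Psmb5* and at base 242 of that of *Psmb6*, both just before the gene start.

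In tumor cells the highest mean levels were those of core subunits, and *Psmd7*, *Psmd8* and *Psmd4* of the regulatory particle reached into the range of the core. Since a 3′ library counts 1 tag per captured transcript whatever its length, levels in CPM are set side by side between genes without division by length, and genes may differ in how well they are captured. *Psma7* of the alpha ring led, with 643 ± 138 CPM (SD, n = 6 tumors), followed by *Psmb1* of the beta ring at 564 ± 59.9 CPM and the catalytic *Psmb6* at 468 ± 113 CPM. These neighbors in the order differed by less than their spread. The other alpha subunits of the ring, *Psma8* aside, had means between 198 CPM (*Psma1*) and 381 CPM (*Psma2*). The other non-catalytic beta subunits had means between 306 CPM (*Psmb4*) and 425 CPM (*Psmb2*). The ATPases lay between 90.4 CPM (*Psmc6*) and 169 CPM (*Psmc3*). The base subunits *Psmd1*, *Psmd2* and the ubiquitin receptor *Psmd4* stood at 101, 132 and 206 CPM. Of the lid, 6 subunits lay between 83.5 CPM (*Psmd3*) and 137 CPM (*Psmd11*), *Psmd8* stood at 221 ± 128 CPM and *Psmd7*, the partner of the deubiquitinase *Psmd14*, at 318 ± 40.5 CPM. Apart from *Psma8*, which is described further on, the assembly chaperones were lowest. They stood at 66.5 CPM for *Psmd10*, 54.4 CPM for *Psmd9* and 31.6 CPM for *Psmd5*, which had no UMI in Rosini1177.

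**Figure D1:**
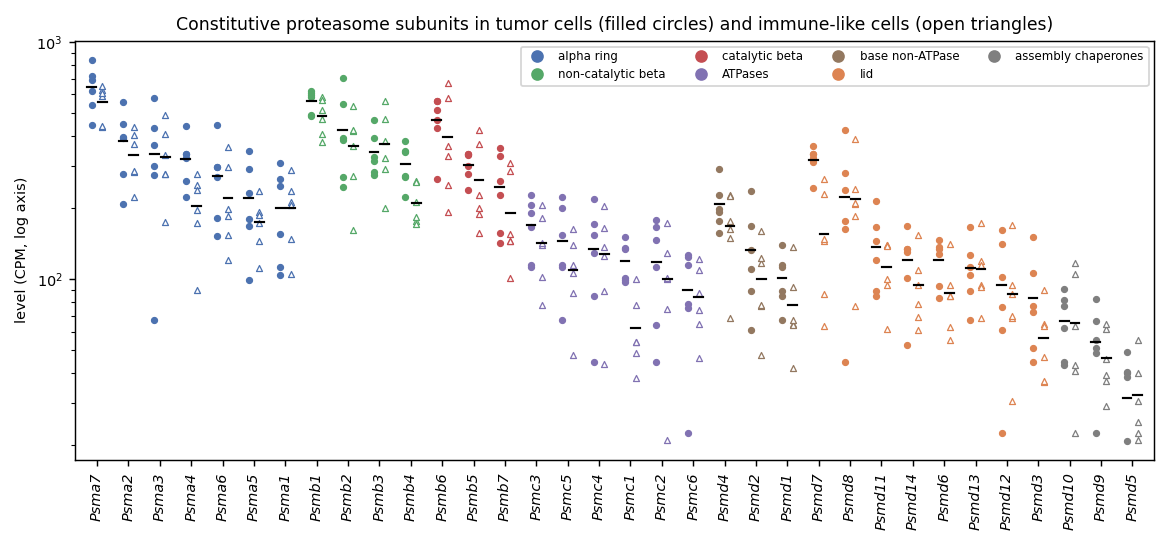
Level of each member in CPM (log axis) in tumor cells (filled circles) and immune-like cells (open triangles) of the 6 tumors, grouped and colored by subcomplex. Bars mark means, a value of 0 is not drawn, and *Psma8* is left out. *Psma7* led in tumor cells at a mean of 643 CPM, and *Psmd7* of the lid stood apart from most other lid subunits.

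The first comparison asked whether tumor cells hold more or less of the constitutive subunits than the immune-like cells of the same tumor. *Psmd7* and *Psmc1* were the members called higher in tumor cells, and both calls were lost without cluster eRT 19. With edgeR's quasi-likelihood test and the tumor as a block, 2 of the 35 members were higher in tumor cells (15.1% of all 12124 genes tested were called higher) and 32 did not pass at an adjusted p of 0.05. The other 1, *Psma8*, was called lower (16.8% of all genes were called lower, 31.8% in all), but it passed the filter on low values through the immune-like cells alone, so its call is only a description. Without cluster eRT 19, an alternative chosen after seeing the data, 0 members were called higher (14.8% of all genes), with an adjusted p of 0.0524 for *Psmd7* and 0.0714 for *Psmc1* by edgeR, while without the whole of Rosini1148 both stayed called (0.0202 and 0.0427). The median log2 fold change was -0.01 over the members and -0.04 over all genes tested. Without TMM factors (which correct each sum for a few very abundant genes) both medians moved up together, to 0.25 and 0.21, and with DESeq2 both were -0.07, so a common direction of the members is not separable from the scaling. *Psmd7* and *Psmc1* were called higher and *Psma8* lower under all of these scalings, except that DESeq2 called *Psmb3* lower in place of *Psma8*. Over all genes, 1825 were called higher and 2033 lower, and 2423 and 1672 without TMM factors. The sums of tumor cells also serve in all comparisons that follow.

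Summed over subcomplexes, with no test, the levels in CPM were mostly somewhat higher in tumor cells. The lid reached 1204 ± 340 CPM in tumor cells against 919 ± 360 CPM in immune-like cells, and was higher in 6 of 6 tumors by 1.10 to 1.97 times. The ATPases, at 774 ± 262 against 623 ± 242 CPM, and the base subunits outside the ATPases, at 440 ± 118 against 346 ± 123 CPM, were also higher in 6 of 6. The alpha ring, at 2371 ± 610 against 2018 ± 478 CPM, and the catalytic beta subunits, at 1017 ± 194 against 847 ± 378 CPM, were higher in 4 of 6. The assembly chaperones were higher in 3 of 6. On this scale all genes tested had a median shift of 0.21 (log2), which is of the size of the mean log2 ratio of all members, 0.29 ± 0.31 (SD, n = 6).

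*Psmd7*, a scaffold subunit of the lid on chromosome 8 (GRCm38, 107580381 to 107588464), was the member with the largest rise. Its tumor cell level was 362 CPM in Rosini1172, 335 CPM in both Rosini1177 and Rosini1232, 312 CPM in Rosini1148, 243 CPM in Soxertini568 and 323 CPM in Soxertini593. In that order, immune-like cells had 144, 63.1, 228, 263, 86.6 and 148 CPM. Tumor cells were higher in 6 of 6 tumors, and the ranges met only in that the tumor cells of Soxertini568 lay below the immune-like cells of Rosini1148. The log2 fold change was 0.86 ± 0.27 (SE), with an adjusted p of 0.0328 by edgeR. It kept its sign in all 26 alternatives, from 0.71 to 1.15, but missed the threshold in 11, among them those without cluster eRT 19 and without Rosini1172 (adjusted p = 0.0603), Rosini1177 (0.0716), Soxertini568 (0.0987) or Soxertini593 (0.0831) and that without the tumor as a block (0.0689).

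Within the lid, the share of UMIs that came from *Psmd7* does not depend on how the sums were scaled. It was 27.8% ± 6.41 (SD, n = 6) in tumor cells and 16.4% ± 3.44 in immune-like cells, and was higher in tumor cells in 6 of 6 tumors. In MYC spinal Rosini1172, Rosini1177 and Rosini1232 it was 24.5%, 37.5% and 25.6% in tumor cells against 15.0%, 13.9% and 21.6% in immune-like cells. In eRT Soxertini568 and Soxertini593 it was 30.2% and 30.3% against 12% and 18.4%. In eRT Rosini1148 the values were 18.7% (exact 95% interval 16% to 21.6%) and 17.3% (16.7% to 18.0%), which overlap within counting error. The share was lower in tumor cells in 6 of 6 tumors for *Psmd8* (17.4% against 23.1%) and *Psmd13* (9.24% against 12.4%). The shares are parts of the same total, so a larger share of *Psmd7* by itself lowers the others. No test was made on the shares, and *Psmd7* was picked for its rise in the same sums.

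*Psmc1* encodes an ATPase of the base and lies on chromosome 12 from 100110154 to 100123405. Tumor cells had 150 CPM in Rosini1172, 134 CPM in Rosini1177, 101 CPM in Rosini1232, 135 CPM in Rosini1148, 99.2 CPM in Soxertini568 and 96.7 CPM in Soxertini593. Immune-like cells had 77.7, 38.3, 54.2, 100, 48.9 and 54.3 CPM in this order. Tumor cells were again higher in 6 of 6, and all but the immune-like cells of Rosini1148 lay below the lowest tumor cells. The log2 fold change was 0.66 ± 0.22 (SE), with an adjusted p of 0.043 by edgeR. The call was lost without any one of Rosini1172, Rosini1177, Rosini1232, Soxertini568 and Soxertini593 (adjusted p 0.0541 to 0.119) without osteoclasts among the immune-like cells (0.0578) and without cluster eRT 19 (0.0714), with log2 fold changes of 0.52 to 0.94 over all 26 alternatives. Its share of the ATPase UMIs was 17.0% ± 7.44 in tumor cells, where the highest value, 31.6% in Rosini1177, rests on 6 UMIs, and 10.3% ± 1.88 in immune-like cells, and was higher in tumor cells in 6 of 6.

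**Figure D2:**
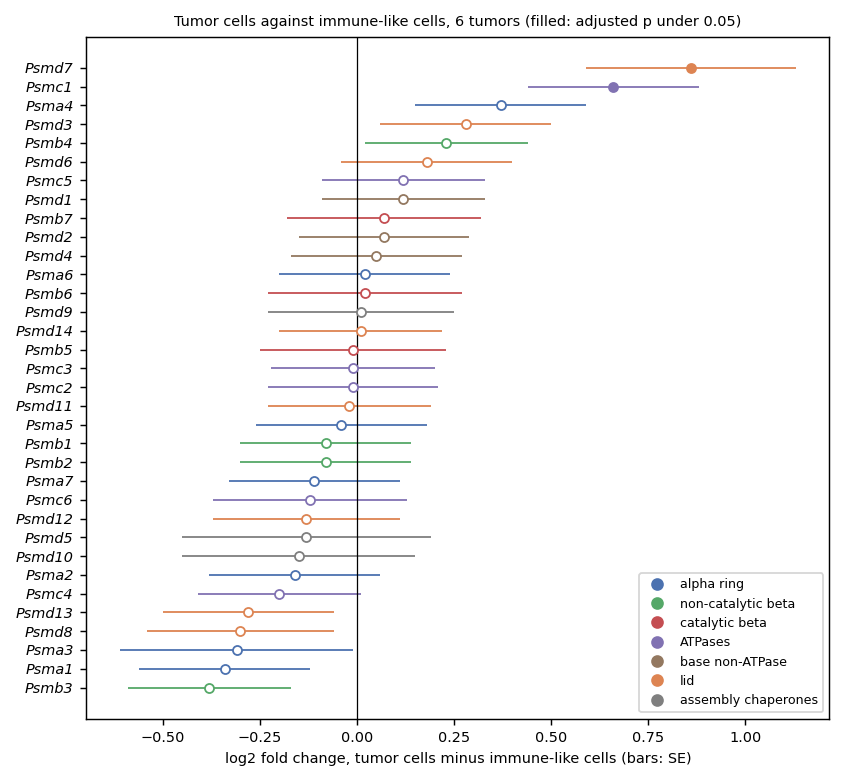
Log2 fold change of each member between tumor cells and immune-like cells, with the standard error as bars and filled points for adjusted p under 0.05. *Psma8*, at -4.61, is left out. *Psmd7* (0.86) and *Psmc1* (0.66) are the filled points, and most others lie within 1 or 2 standard errors of 0.

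After these, *Psma4* of the alpha ring (0.37 ± 0.22, adjusted p = 0.235), *Psmd3* of the lid (0.28 ± 0.22, 0.38) and *Psmb4* of the beta ring (0.23 ± 0.21, 0.455) had the largest positive log2 fold changes by edgeR, none past the threshold. All were higher in CPM in 6 of 6 tumors. *Psma4* stood at 221 to 443 CPM in tumor cells and 89.5 to 277 CPM in immune-like cells, and *Psmb4* at 222 to 380 against 170 to 258 CPM, so that both ranges overlapped. At the other end lay *Psmb3* of the beta ring (-0.38 ± 0.21, adjusted p = 0.206), *Psma1* (-0.34 ± 0.22, 0.269) and *Psma3* (-0.31 ± 0.30, 0.497) of the alpha ring and *Psmd8* of the lid (-0.30 ± 0.24, 0.385). *Psmb3* was at 274 to 470 CPM in tumor cells and 200 to 561 CPM in immune-like cells, and passed the threshold in 1 of 26 alternatives. *Psma3* ranged from 67.1 CPM in Rosini1177 to 580 CPM in Rosini1172 among tumor cells.

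*Psma8*, the alpha subunit that replaces *Psma7* in spermatogenic cells, was nearly absent from tumor cells. It was present at a trace in several myeloid types and in cells that were neither tumor nor immune-like. Tumor cells gave 1 UMI each in Rosini1232 and Soxertini593 and 0 in the other 4 tumors. In the order above, the immune-like cells held 0 (Rosini1172, whose table lacks the gene), 18, 66, 31, 6 and 25 UMIs. Pooled over tumors, 2 UMIs in tumor cells stood against 146 in immune-like cells, a level 22.2 times as high in the latter (exact 95% interval 6.03 to 185, counting error only). The edgeR call (adjusted p = 0.00272) adds nothing to this, since the gene entered the test through the immune-like cells alone and its fitted fold depends on the prior count, and DESeq2 did not call it (0.0915).

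Osteoclasts held 75 of the *Psma8* UMIs, in 72 of 2386 cells, at 5.47 CPM (exact 95% interval 4.30 to 6.86), 49 of them in Rosini1232 and 25 in Rosini1148. Granulocyte-monocyte progenitors held 12 UMIs at 6.67 CPM (3.45 to 11.6), macrophages 41 at 3 CPM (2.15 to 4.07) and monocytes 11 at 2.64 CPM (1.32 to 4.72). Neutrophils, also myeloid, held 1 at 0.472 CPM (0.0119 to 2.63). Cells that were neither tumor nor immune-like held 34 at 3.58 CPM (2.48 to 5.01). T cells held 0 of 2942077 UMIs, which would allow up to 1.25 CPM (exact 95% interval, where a floor of 3 UMIs would be 1.02 CPM). Of these UMIs, 1680431 came from Rosini1172, whose table lacks the gene, so this limit is too low. Tumor cells stood at 0.158 CPM (0.0191 to 0.57). So the trace was not the same in all kinds of cells within counting error. Without osteoclasts, 71 UMIs remained in immune-like cells, 16.1 times the level of tumor cells (4.29 to 135), but the gene then fell below the filter and was not tested, as it did without Rosini1232 or Soxertini593. How reads were divided between *Psma8* and its close relative *Psma7* was not checked.

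The catalytic subunits themselves did not pass the test. *Psmb5* had 333, 335 and 338 CPM in tumor cells from MYC spinal tumors and 299, 237 and 278 CPM in tumor cells from eRT, with tumors ordered as above. The immune-like cells held 199, 156, 424, 372, 188 and 227 CPM, so the groups overlapped, and the log2 fold change was -0.01 ± 0.24 (edgeR, adjusted p = 0.978). *Psmb6* stood at 564, 469, 434, 517, 264 and 563 CPM in tumor cells and at 329, 192, 580, 669, 248 and 362 CPM in immune-like cells, a log2 fold change of 0.02 ± 0.25 (adjusted p = 0.975). *Psmb7* stood at 258, 358, 331, 226, 142 and 157 CPM against 155, 101, 285, 307, 145 and 145 CPM, a log2 fold change of 0.07 ± 0.25 (adjusted p = 0.877). In all 3 genes the immune-like cells of Rosini1232 and Rosini1148, the tumors rich in osteoclasts, were the highest of their group.

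Of their immunoproteasome counterparts, *Psmb8* and *Psmb9* were lower in tumor cells and *Psmb10* did not pass. *Psmb8* had 714, 89.4, 273, 487, 68.8 and 38.6 CPM in tumor cells, tumors ordered as before. Immune-like cells had 1430, 216, 452, 624, 570 and 544 CPM, higher than the tumor cells in 6 of 6, and the log2 fold change was -1.96 ± 0.46 (edgeR, adjusted p = 0.00754). *Psmb9* stood at 221, 0, 80.8, 87.6, 14.4 and 10.6 CPM against 342, 97.9, 111, 121, 152 and 94.4 CPM, a log2 fold change of -1.87 ± 0.49 (adjusted p = 0.0136), and was lower in 6 of 6. Both calls held without any 1 tumor and were lost without the tumor as a block (0.0857 and 0.124). *Psmb10* stood at 470, 44.7, 119, 150, 99.2 and 73.6 CPM against 330, 75.4, 110, 166, 144 and 180 CPM and did not pass (-0.56 ± 0.28, adjusted p = 0.154), with tumor cells higher in Rosini1172 and Rosini1232. The tumor cells of Rosini1172 were highest in all 3 genes, and its immune-like cells were too.

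Set as a share within each pair, with no test, the constitutive form was on average the larger part in tumor cells, though not in every tumor. *Psmb5* made up 61.6% ± 23.3 (SD, n = 6) of the UMIs of *Psmb5* and *Psmb8* in tumor cells, with 31.8% in Rosini1172 and 38% in Rosini1148, and 32.4% ± 13 in immune-like cells. *Psmb6* made up 89.1% ± 10.7 against 70.8% ± 14.2 of its pair with *Psmb9*, and *Psmb7* 64.2% ± 17.8 against 53.5% ± 14.5 of its pair with *Psmb10*, with 35.4% in the tumor cells of Rosini1172. Over the 3 pairs together, tumor cells reached 45.1% (exact 95% interval 42.5% to 47.8%), 89.7% (78.8% to 96.1%) and 70.0% (69.1% to 70.8%) in MYC spinal Rosini1172, Rosini1177 and Rosini1232. The values were 59.0% (55.6% to 62.4%), 77.9% (74.1% to 81.4%) and 89.1% (88.0% to 90.1%) in eRT Rosini1148, Soxertini568 and Soxertini593. Immune-like cells, in this order, were at 24.5%, 53.6%, 65.7%, 59.7%, 40.2% and 47.3%, lower in 5 of 6 tumors, and in Rosini1148 the interval (59.0% to 60.3%) lay within that of the tumor cells. Among immune types the share over the 3 pairs was highest in osteoclasts, 70.0% ± 14.7 (n = 4), and lowest in dendritic cells, 29.6% ± 4.18 (n = 5), natural killer cells, 34.8% ± 8.93 (n = 6), and T cells, 35.6% ± 10.6 (n = 6).

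**Figure D3:**
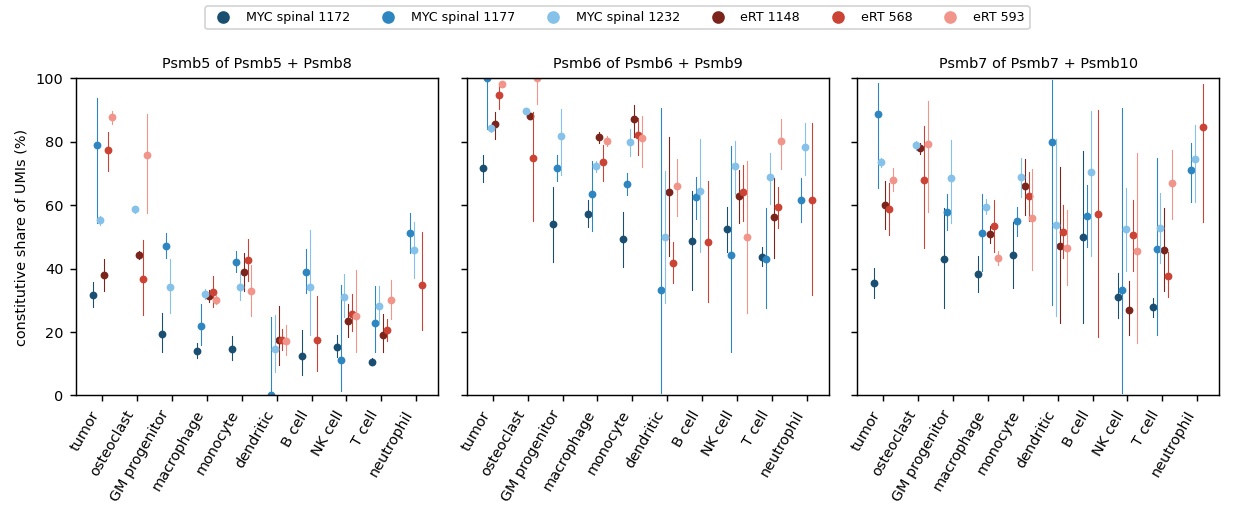
Share of UMIs from the constitutive gene within each catalytic pair, in percent, for tumor cells and each immune type (GM, granulocyte-monocyte; NK, natural killer). Points are tumors and lines exact 95% intervals for counting error. For *Psmb5* with *Psmb8*, tumor cells range from 31.8% to 87.8%, osteoclasts from 36.6% to 75.8% and dendritic cells from 0% to 17.6%.

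The second comparison set tumor cells against each immune type in a joint fit of 6785 genes, of which 34 were members. All members together summed to 2384 ± 1430 CPM (SD, n = 3 tumors) in neutrophils, to 7596 ± 1720 CPM (n = 6) in tumor cells and to 8657 ± 725 CPM (n = 4) in osteoclasts. In between and close to each other lay B cells (5980 ± 1120, n = 4), dendritic cells (6064 ± 1740, n = 5), macrophages (6203 ± 1660, n = 6), monocytes (6384 ± 1720, n = 6), T cells (6479 ± 2040, n = 6), natural killer cells (6554 ± 1670, n = 6) and granulocyte-monocyte progenitors (6837 ± 2230, n = 3). These 7 types, and tumor cells and osteoclasts, differed from their neighbors by less than the spread between tumors. The means rest on different tumors, and in Rosini1232, for one, tumor cells summed to 8303 CPM and osteoclasts to 7946 CPM. Cells that were neither tumor nor immune-like by their markers summed to 3505 to 10750 CPM. They entered a test only in an alternative, together with the immune-like cells. Their *Psmd7* ranged from 77.7 CPM in Rosini1177 to 345 CPM in Rosini1148, above the tumor cells in Rosini1148 and below them in the other tumors. Their *Psmc1* lay above the tumor cells in Rosini1172 (155 CPM), Rosini1148 (138 CPM) and Soxertini568 (103 CPM) and below them in the others.

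Against neutrophils, 11 members were higher in tumor cells (22.6% of all genes were called higher) and 0 lower (23.5%), in a contrast with 46.2% of all genes called. *Psmd7* led with 305 against 34.6 CPM, a log2 fold change of 2.21 ± 0.32 (edgeR, adjusted p = 2.74e-07), and *Psma5* of the alpha ring followed with 1.33 ± 0.28 (adjusted p = 0.000117). The others were *Psma4*, the beta subunits *Psmb1*, *Psmb4*, *Psmb6* and *Psmb7*, the ATPases *Psmc1* and *Psmc5*, the base scaffold *Psmd2* and *Psmd3* of the lid, with log2 fold changes of 0.57 (*Psmb1*) to 1.28 (*Psma4*). *Psmd13* (-0.13) and *Psmb3* (-0.12) had the lowest values, although both were higher in CPM in tumor cells in 3 of 3 tumors. The scale decides how many pass here: without TMM factors 32 members were called higher, beside 3069 of all 6785 genes (927 lower), and the median of all genes moved from 0.07 to 0.91. Neutrophils had sums of at least 10 cells in 3 tumors.

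Against T cells, 9 members were higher (20.3% of all genes were called higher) and 0 lower (17.6%), with 37.8% of all genes called. *Psmd7* stood at 318 against 132 CPM (1.34 ± 0.23, edgeR adjusted p = 4.73e-06) and *Psmc1* at 119 against 65.4 CPM (0.85 ± 0.26, adjusted p = 0.00889), both without overlap between the 6 sums of each kind. How many of all genes lay without overlap was not counted, here or against macrophages below. *Psmd10*, *Psmd6*, *Psma6*, *Psmd3*, *Psma4*, *Psmb6* and *Psmb4* were called with log2 fold changes of 0.61 to 0.77. *Psmd9* (-0.23 ± 0.25, adjusted p = 0.506) and *Psmd13* (-0.17 ± 0.24, 0.761) had the lowest values. Against natural killer cells, 5 members were higher (18.5% of all genes) and 0 lower (13.8%, with 32.2% called in all): *Psmd7* (1.24 ± 0.24, adjusted p = 4.46e-05), *Psmc1* (1.06 ± 0.29, 0.0034), *Psmd3* (1.04 ± 0.28, 0.00295), *Psmb7* (0.69 ± 0.25, 0.0261) and *Psma6* (0.63 ± 0.22, 0.0257). *Psma2* (-0.20) and *Psmd5* (-0.16) were lowest there, neither past the threshold. Lymphoid B cells gave 2 members higher (10.3% of all genes) and 0 lower (9.67%, with 20% called in all), *Psmd7* (0.87 ± 0.28, adjusted p = 0.0221) and *Psmb4* (0.69 ± 0.24, 0.0392), while *Psmc2* (0.84 ± 0.35, 0.0826) and, at the other end, *Psma1* (-0.14) and *Psmb1* (-0.11) did not pass.

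Of the members, 2 passed against macrophages, 3 against monocytes and 4 against dendritic cells. Against macrophages 2 were higher (17.7% of all genes) and 0 lower (22.1%, with 39.9% called in all), *Psmd7* at 318 against 135 CPM (1.12 ± 0.22, edgeR adjusted p = 3.59e-05), without overlap between the sums, and *Psmc1* (0.74 ± 0.25, 0.0139). Against monocytes *Psmd7* (1.21 ± 0.22, 1.53e-05) and *Psmd3* (0.68 ± 0.24, 0.021) were higher (18.6% of all genes), and *Psmd8* was lower (-0.54 ± 0.22, 0.0436) where 22.1% of all genes were called lower and 40.7% in all. Against dendritic cells 4 were higher (16.9% of all genes) and 0 lower (16%, with 32.9% called in all), *Psmd7* (1.73 ± 0.27, 2.47e-06), *Psmd6* (0.86 ± 0.27, 0.0113), *Psmc1* (0.83 ± 0.33, 0.0477) and *Psmb4* (0.63 ± 0.22, 0.0236). *Psma1* and *Psmd13* had the lowest values against macrophages (-0.26 and -0.27) and dendritic cells (-0.28 and -0.12), and *Psma1* was at -0.26 against monocytes, none past the threshold.

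Osteoclasts and granulocyte-monocyte progenitors gave 0 members past the threshold with edgeR, where 28.1% (13.9% higher, 14.2% lower) and 20.7% (9.76% higher, 11% lower) of all genes were called. At an unadjusted p under 0.05 there were 2 and 0 members, beside 2526 and 2166 of all 6785 genes. DESeq2 called 6 members (4 higher, 2 lower) against osteoclasts, beside 1219 genes higher and 963 lower, and 2 (higher) against the progenitors, beside 782 genes higher and 702 lower. Against osteoclasts *Psmc1* (0.71 ± 0.31, adjusted p = 0.0784) and *Psma4* (0.52 ± 0.28, 0.176) had the highest and *Psmd10* (-0.63 ± 0.31, 0.133) and *Psma3* (-0.52 ± 0.26, 0.137) the lowest log2 fold changes. Against granulocyte-monocyte progenitors *Psmc1* (0.53 ± 0.34, 0.31) and *Psmd3* (0.52 ± 0.33, 0.293) were highest and *Psmd5* (-0.42 ± 0.43, 0.561) and *Psmb3* (-0.38 ± 0.30, 0.427) lowest.

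**Figure D4:**
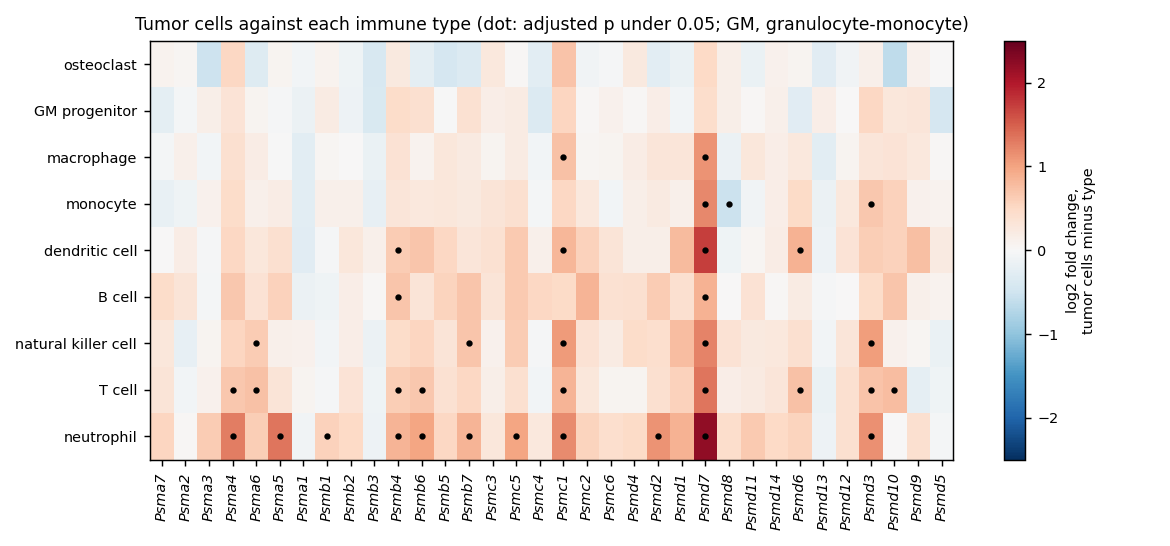
Log2 fold change between tumor cells and each immune type for the 34 members tested, in the order of their subcomplexes (red, higher in tumor cells; blue, lower; dots, adjusted p under 0.05). The column of *Psmd7* carries dots for 7 of the 9 types, and the rows of osteoclasts and granulocyte-monocyte progenitors carry none.

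*Psmd7* was thus called against 7 of the 9 types. Against dendritic cells, macrophages, monocytes, natural killer cells, neutrophils and T cells it passed under every alternative run, with log2 fold changes of 0.96 (macrophages) to 3.07 (neutrophils), and against B cells it missed the threshold in 10 of 22. Against osteoclasts (266 ± 68.5 CPM, log2 fold change 0.50 ± 0.25, adjusted p = 0.137) and granulocyte-monocyte progenitors (223 ± 119 CPM, 0.44 ± 0.28, 0.298) it did not pass with edgeR, and whether these types differ from the others was not tested. In osteoclasts it stood at 264 CPM in Rosini1232, 313 CPM in Rosini1148, 170 CPM in Soxertini568 and 318 CPM in Soxertini593. Its share of lid UMIs was 21.7% ± 5.32 in osteoclasts and 22.1% ± 7.15 in the progenitors, and between 9.28% (dendritic cells) and 17.7% (B cells) in the other types. Within the tumor cells *Psmd7* lay between 252 and 391 CPM in every cluster of at least 10 cells in a tumor, except 139 CPM in 1 of the 2 clusters of Soxertini568. That cluster held 143 of the 202 tumor cells of Soxertini568. Over the 49 sums of tumor cells and types, its pattern was most like those of *Psmd6* (Pearson's r = 0.89 of log2 CPM after adding 10 CPM), *Psmb5* (0.85) and *Psmb6* (0.83), a description over sums that share tumors and depth.

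**Figure D5:**
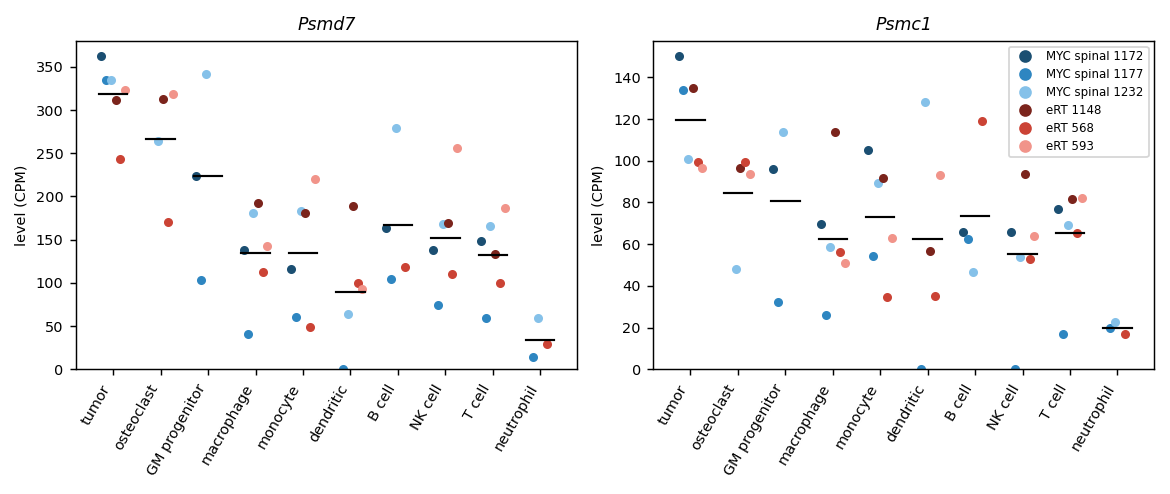
Level of *Psmd7* and *Psmc1* in CPM in tumor cells and in each immune type (GM, granulocyte-monocyte; NK, natural killer), with 1 point per tumor and bars for means. *Psmd7* is at 243 to 362 CPM in tumor cells and at 14.5 to 59.7 CPM in neutrophils, and *Psmc1* at 96.7 to 150 and 16.8 to 22.8 CPM.

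In the same fits *Psmb8* was lower in tumor cells than in 8 of the 9 types, with log2 fold changes of -1.04 (osteoclasts, edgeR adjusted p = 0.0241) to -2.58 (dendritic cells, 1.18e-07), and did not pass against neutrophils (-0.55, 0.269). *Psmb9* was lower than in 6 types and did not pass against osteoclasts, granulocyte-monocyte progenitors and neutrophils. *Psmb10* was higher in tumor cells than in neutrophils (1.30, adjusted p = 0.00556) and did not pass against the other 8.

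Between the subtypes, no member passed the test in tumor cells, which does not show that their levels were alike. In the test of eRT against MYC spinal, 0 of 34 members and 0 of 5709 genes (0%) passed with edgeR, 194 genes and 0 members had an unadjusted p under 0.05, and DESeq2 called 19 genes and 0 members. The members' log2 fold changes ran from -0.55 to 0.59 with a median of 0.12, against 0.05 over all genes. *Psmb7* was lowest, with 226, 142 and 157 CPM in eRT against 258, 358 and 331 CPM in MYC spinal (-0.55 ± 0.35, unadjusted p = 0.16), and *Psmd8* was highest (0.59 ± 0.58). In CPM, *Psmb4*, *Psmb5*, *Psmb7* and *Psmd7* lay lower in all eRT than in all MYC spinal tumors (4 of 34 members lower without overlap, against 7.83% of all genes) and 0 members higher (1.59% of all genes). With TMM factors 0 members lay lower (2.21% of all genes) and *Psmc1* alone lay higher (4.92% of all genes), so these orders follow the scale and none is a call.

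The difference between tumor and immune-like cells was also not shown to vary with the subtype. The interaction gave 0 of 35 members and 0 of 12124 genes (0%) with edgeR, 355 genes and 0 members at an unadjusted p under 0.05, and 3 genes and 0 members with DESeq2. The interaction was -0.10 ± 0.59 for *Psmd7* and -0.09 ± 0.51 for *Psmc1* on the log2 scale, and -0.67 ± 0.51 for *Psmb7*, the lowest of the members. With 3 tumors per subtype these errors come close to the size of the tumor against immune-like difference itself, and an interaction of that size was not detectable.

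Other genes of the pathway were taken as a list of 36, which holds the immunoproteasome subunits, activators, assembly factors, deubiquitinases, shuttle receptors, ubiquitin genes and transcriptional regulators. In tumor cells against immune-like cells, 1 was higher and 4 were lower with edgeR, beside 15.1% and 16.8% of all genes, and 31 did not pass. *Uba1*, the E1 enzyme that activates ubiquitin, was higher, with 78.4 to 252 CPM against 41.2 to 77.4 CPM (0.97 ± 0.32, edgeR adjusted p = 0.0381). It missed the threshold without cluster eRT 19 (0.0877), Rosini1172 (0.0799), Rosini1232 (0.104) or Soxertini593 (0.135). Beside *Psmb8* and *Psmb9*, the lower genes were *Pomp*, the chaperone that matures the core, with 213 to 382 against 327 to 592 CPM (-0.82 ± 0.24, 0.0223), and *Uchl5*, a deubiquitinase bound to the regulatory particle, with 0 to 40.3 against 29.9 to 62.1 CPM (-1.05 ± 0.33, 0.0309). *Pomp* missed the threshold without TMM factors (0.0647) or without Soxertini593 (0.0761), and *Uchl5* without TMM factors (0.0787) or without Rosini1148 (0.0575), Soxertini568 (0.073) or Soxertini593 (0.0889). *Nfe2l1* stood at 0 to 49.1 CPM against 9.20 to 24.6 CPM and did not pass (0.91 ± 0.33, 0.0565). The 5 activators and inhibitors all had negative log2 fold changes, from -0.65 to -0.04, and none passed. Between the subtypes, and in the interaction, 0 of these genes passed.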

How the data were processed

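Single-cell suspensions of 6 tumors were profiled with 3′ tagged libraries. The deposited values are counts of UMIs per gene and cell, which the authors made with Cell Ranger 2.0.2 on mm10, in 1 table per tumor. Of the per-sample columns, 0 were left unused. Cells are numbered there without barcodes, so barcodes shared between libraries could not be counted.

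Cells passed at 200 or more genes and a mitochondrial share of UMIs up to 25%, and were integrated and clustered with Seurat 5.3.0 (2000 variable genes, without the members, the pathway genes and *Smarcb1*, 30 dimensions, 20 neighbors, resolution 0.8). Clusters were named as immune types from marker lists where at least 3 markers were raised, each in at least 10% of cells with a log2 fold of at least 1. The type also had to lead the next by 2, or to have at least 2 markers among the 10 leading genes with none of another type there. Of the clusters not named as immune, those with *Smarcb1* below 0.25 of the expected level were taken as tumor cells. That level came from the immune-like cells of the same tumor, and at least 10 UMIs had to be expected. These naming limits were set after the clusters had been seen. Scrublet, run in scanpy 1.11.5 (Python 3.11.15), called 21 of 22163 cells (0.0948%), too few to have worked, so doublets were kept, and leaving out the 843 highest scores was an alternative.

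UMIs were summed per tumor and kind of cell with at least 10 cells, and immune types with sums in at least 3 tumors were tested. CPM are UMIs per 1000000 UMIs of a sum. Sums were compared with edgeR 4.0.16 in R 4.3.3 (quasi-likelihood test, TMM factors, filterByExpr, tumor as a block except between subtypes, Benjamini-Hochberg over all genes tested, threshold 0.05). DESeq2 1.42.0 was an alternative. Log2 fold changes are on the scale with TMM factors, and a standard error is the log2 fold change divided by the root of F. Shares have exact binomial 95% intervals, which cover counting error only. A floor is 3 UMIs of the sum.

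The study compared single cells with MAST, which was not used here, since cells of 1 tumor are not replicates. The genes named with values are the catalytic subunits of both forms, the members called, the 5 highest and 5 lowest members of the first comparison and the 2 highest and 2 lowest per immune type. The pathway genes named are those called, and *Nfe2l1* was chosen after its values were seen. The members, lists and comparisons were chosen with earlier results of these data known. Tests were tried on simulated data with genes changed by 2 or 3 on the log2 scale. Of those changed by 2, the first comparison recovered 68%, the joint fit of types 75.4%, the test between subtypes 9% and the interaction 8%. Of all calls made there, over both sizes of change, 6.67%, 5.07%, 13.5% and 35.5% in this order were false. The simulated means of a gene differed between sums only by the size of the sum and by these changes. Smaller changes, such as those of *Psmd7* and *Psmc1* in the first comparison, were not simulated. The alternatives were scaling, gene and cell filters, thinning to 1000 UMIs, clustering resolution, the *Smarcb1* limit, removal of mitotic cells, the block, the tool, the correction and leaving out each tumor. Those without osteoclasts, neutrophils or 1 tumor cluster were added after the data had been seen.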

Additional observations from a re-analysis of the deposited data

Results flagged for a closer look

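Of 112 groups of 4 to 6 tumors examined, 7 held a tumor far from the others by Dixon's criterion at 95%, which chance gives in about 1 in 20 groups. In MYC spinal Rosini1172, *Psmb10* stood at 470 CPM in tumor cells, and *Psmb8* and *Psmb9* at 1430 and 342 CPM in immune-like cells, each the highest of 6 tumors. In eRT Soxertini568, the catalytic beta subunits summed to 643.1 CPM in tumor cells and 907.2 CPM in osteoclasts (18 cells), each the lowest. The lid summed to 1562 CPM in the osteoclasts of eRT Rosini1148, the highest of 4, and the assembly chaperones to 82.68 CPM in the B cells of MYC spinal Rosini1177, the lowest of 4.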

How the results depend on the processing

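The number of members called between tumor cells and immune-like cells was small and moved with the processing. Against 2 higher and 1 lower, 1 higher was called with every gene of at least 1 UMI, against all other cells, and, chosen after seeing the data, without osteoclasts or without osteoclasts and Rosini1177. Also 0 higher were called with Bonferroni's correction, at resolution 0.4, with cells thinned to 1000 UMIs, without mitotic cells, with at least 30 cells per sum and, chosen after seeing the data, without tumor cluster eRT 19. The lower call (*Psma8*, a description) was 0 with Bonferroni's correction, thinning and without osteoclasts, with or without Rosini1177. After thinning and without osteoclasts the gene fell below the filter and was not tested. Leaving out each tumor gave 0 to 2 higher and 0 to 1 lower. Of all genes, 11.4% to 20% were called higher and 12.5% to 19.3% lower in these fits, 9.64% and 12.6% without the block and 1.15% and 2.8% with Bonferroni's correction.

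Over the 9 immune types, 35 pairs of member and type were higher (11.4%, beside 16.5% of all pairs of gene and type) and 1 lower (0.327%, beside 16.7%). Higher pairs numbered 65 with DESeq2 (21.2%, beside 17.9% of all pairs), 23 with every gene (7.3%, beside 13.2%), 6 with Bonferroni's correction (1.96%, beside 3.9%), 16 at resolution 0.4 (5.88%, beside 14.3%), 18 after thinning (6.06%, beside 13%) and 19 with a separate fit for each type (6.19%, beside 15.8%). Lower pairs numbered 3 with DESeq2, 4 with every gene, 2 at resolution 1.6, without mitotic cells and with at least 30 cells, and 0 without TMM factors, with Bonferroni's correction, with the stricter cell filter and after thinning, where 6.81% to 17.3% of all pairs were called lower. Leaving out each tumor gave 19 (without Rosini1232, 6.21%, beside 12.9% of all pairs) to 41 (without Rosini1177, 13.4%, beside 16.6%) higher. Lower pairs numbered 0 to 1 in these fits, where 13.8% to 15.8% of all pairs were called lower.

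The tumor was the block, as both kinds of cell come from the same mouse. Without the replicate block, 1 member was higher and 0 lower than in immune-like cells. Over the types, 22 pairs were higher (7.19%, beside 12.1% of all pairs) and 0 lower (beside 13.7%). No paired analysis was possible because the subtypes come from different mice, for the test between subtypes. There, and in the interaction, 0 members were called under every alternative run, the Cre strain as a covariate of the former included. The summed levels and catalytic shares moved by less than the spread between tumors. The causes were not tested, and no call reversed in direction. The 15 tumor cells of Rosini1177 limit precision for the rarer subunits.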
